A study of Mus musculus with 2 samples.

Results

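The NF-kB pathway, chemokine and inflammatory genes examined here were 45 mouse genes, taken as the non-control spots whose gene name on the array was one of 45 listed symbols. They were read by 63 probes at 127 spots, out of 34763 genes, 55681 probes and 59305 non-control spots on the array. The cells were mIMCD3, a mouse kidney line derived from epithelium of the inner medullary collecting duct and grown with serum. One RNA came from cells stimulated with 10 ng/mL of the fibroblast growth factor FGF23 for 4 h, and the other from cells left without FGF23. Both RNAs were hybridised together on each of 2 Agilent two-colour arrays. FGF23 RNA carried Cy3 on array 1 and Cy5 on array 2, as given by the labels. The study asked what FGF23 does in tubule cells beyond calcium and phosphate handling.

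NF-kB is a family of dimeric transcription factors that are held in the cytoplasm by inhibitors of the IkB type. Receptors for tumour necrosis factor, interleukin-1 and microbial products recruit TRAF adaptors and ubiquitin ligases, which activate the IkB kinase complex. The kinase marks IkB for destruction, and the released dimers induce chemokines, cytokines and adhesion molecules together with their own inhibitors. In the kidney, tubule epithelium is a known source of such chemokines during injury, and FGF23 signals mainly through FGF receptors with klotho.

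A probe was kept where the scanner software called it well above background on both arrays in FGF23 RNA, or on both in unstimulated RNA. By this rule 35 of the 45 genes were measured, against 55.3% of all genes on the array. Of 16 pathway components (subunits, kinases, adaptors and receptors) 15 were measured, as were all 5 inhibitors or feedback genes and 12 of 19 secreted cytokines and chemokines. Both arrays lay on 1 slide and in 1 scan, no spot was saturated, and between 48.2% and 55.2% of spots were well above background in a dye. The labels do not say whether each array had its own culture or RNA extract, so the spread between these 2 arrays may be technical only. The p-values of limma rest on that spread, taken almost wholly from other genes and little from the gene itself. Of the collecting duct epithelium markers 15 of 16 were measured, against 5 of 12 for leukocytes, 1 of 7 for fibroblasts and 2 of 5 for endothelium. None of these markers passed the test.

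None of the 35 measured genes passed limma's test at an adjusted p of 0.05 in either direction. Over all 19220 measured genes, 0.0468% passed as higher and 0% as lower. The 3 genes of the set furthest below 0 were Traf1, Il1rl1 and Tnfaip3, whose log2 ratios of FGF23 over unstimulated were -0.42, -0.35 and -0.27. The gene furthest above 0 was Tnip1, at 0.19. Their probes gave 0.747-fold, 0.783-fold, 0.829-fold and 1.14-fold the unstimulated intensity.

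At an unadjusted p under 0.05 there were 3 lower genes among the 35 (Traf1, Il1rl1 and Tnfaip3), where the share over all genes was 1.31%, and 1 higher (Tnip1), where it was 2.6%. Below 0 on both arrays were 10 of the 35, against 22.3% of all genes, and above 0 on both were 8, against 23.9%. The 10 include Ccl7, which was kept only through unstimulated RNA, and are 9 without it. The 10 and 8 genes make 28.6% and 22.9% of the 35, near those shares of all genes. The median log2 ratio was -0.011 over the set (-0.022 on array 1 and 0.0037 on array 2) and -0.00068 over all genes. Pathway components had a median of 0.049 over 15 genes (0.0049 on array 1 and -0.024 on array 2). Inhibitors or feedback genes had -0.13 over 5 (-0.078 and 0.0089), and secreted products -0.016 over 12 (-0.020 and 0.0046). In each of the 3 classes the medians of the arrays had opposite signs, as did those of all genes (-0.012 on array 1 and 0.015 on array 2).

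**Figure D1:**
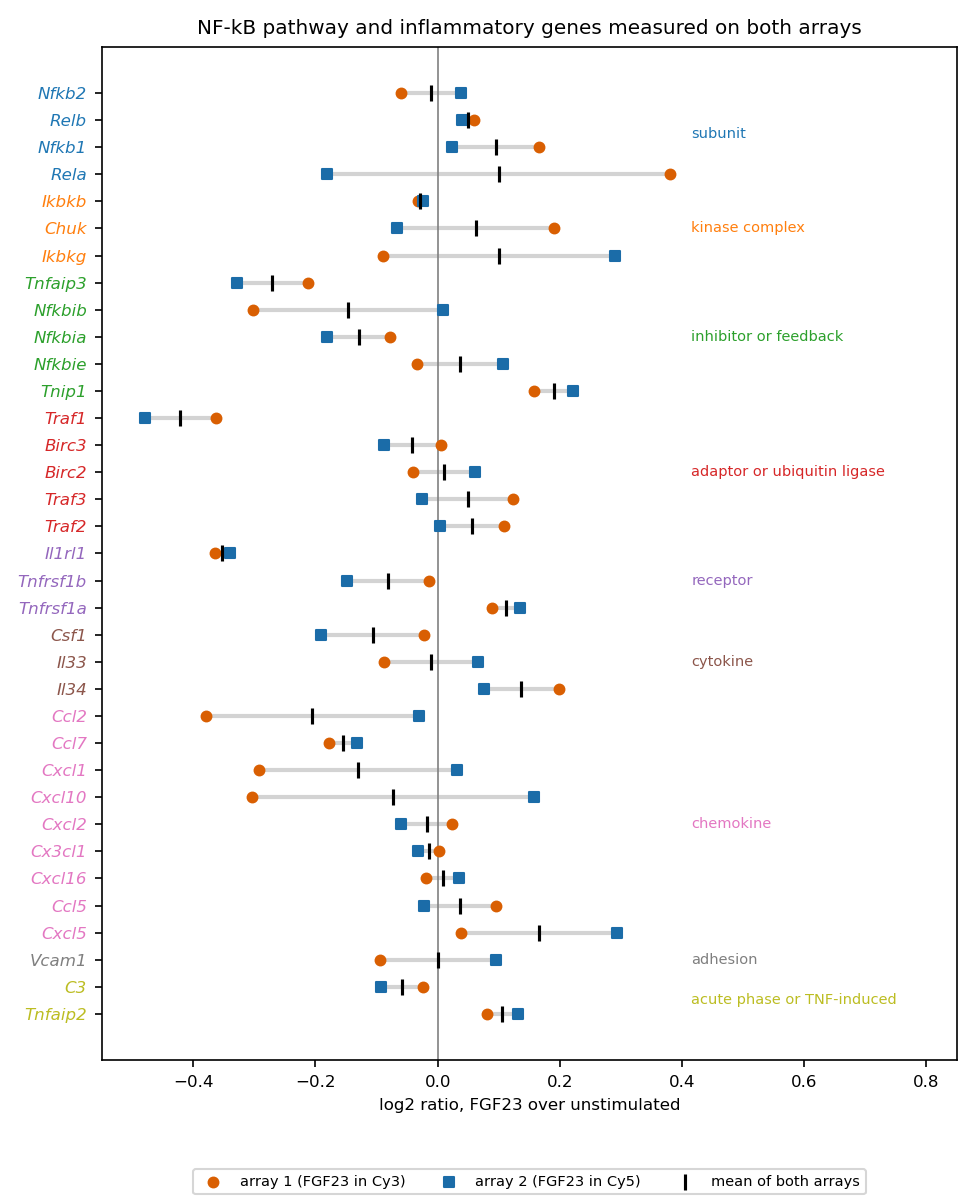
Log2 ratio of FGF23 over unstimulated for the 35 measured genes, ordered by role with names coloured by it, with array 1 as circles, array 2 as squares and their mean as a black tick. Traf1, Il1rl1 and Tnfaip3 lie left of 0 on both arrays and Tnip1 right of 0, while Rela, Cxcl10 and Ikbkg have their arrays on opposite sides of 0.

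Traf1 is an adaptor of tumour necrosis factor receptors and is itself a known NF-kB target. Its probe had normalised intensities of 468 and 432 scanner units in FGF23 RNA on arrays 1 and 2, against 602 and 603 in unstimulated RNA. Both FGF23 values were below both unstimulated values. Normalised intensities here include the offset of 50 units added in background correction and are comparable only within a probe. The log2 ratio was -0.36 on array 1 and -0.48 on array 2 (mean -0.42 ± 0.081, SD, n = 2 arrays), with limma's 95% interval from -0.61 to -0.23 and an adjusted p of 0.215. It ranked 30th among the 19220 genes by limma's p.

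The probes that read the genes furthest from 0 are shown 5′ to 3′ as deposited, since each value rests on these bases alone. Positions are on mm9, per the file headers, and exon or UTR annotation of that build was not used here. Traf1 has 1 probe at chr2:34798882-34798941 on the minus strand and Tnfaip3 has 1 at chr10:18720776-18720835 on the minus strand. The brighter Il1rl1 probe lies at chr1:40504769-40504828 and the other kept one at chr1:40522187-40522246, both on the plus strand, and the Ccl7 probe lies at chr11:81860656-81860715 on the plus strand.
Traf1 A_51_P343833: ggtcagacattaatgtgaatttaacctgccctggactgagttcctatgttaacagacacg
Tnfaip3 A_55_P2053838: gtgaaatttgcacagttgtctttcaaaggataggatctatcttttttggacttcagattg
Il1rl1 A_51_P339793: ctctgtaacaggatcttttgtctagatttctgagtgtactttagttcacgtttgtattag
Il1rl1 A_55_P2027737: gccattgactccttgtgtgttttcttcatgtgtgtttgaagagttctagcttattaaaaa
Ccl7 A_51_P436652: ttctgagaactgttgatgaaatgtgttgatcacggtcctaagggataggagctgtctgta
No run of 20 bases in any of the 63 probes recurred in a probe annotated to another gene on the array.

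Il1rl1 encodes ST2, the receptor for interleukin-33, and is known to give both a membrane-bound and a soluble protein. Its brightest probe had 371 and 369 units in FGF23 RNA, against 477 and 468 in unstimulated RNA. The FGF23 values lay below the unstimulated ones on both arrays, without overlap. The log2 ratios of -0.36 and -0.34 gave a mean of -0.35 ± 0.017 (SD, n = 2 arrays) at an adjusted p of 0.382 in limma. A second kept probe, annotated to a different RefSeq transcript of the gene, had -0.17 and -0.14 (mean -0.15). Its intensities were 278 and 336 units in FGF23 RNA and 312 and 370 in unstimulated RNA, lower with FGF23 within each array but overlapping between arrays. Another probe of that second transcript was not well above background in either RNA. Both measured probes were thus below 0 on both arrays, by amounts that differed by 0.20.

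The other receptors were the tumour necrosis factor receptors. Tnfrsf1a, the widely expressed receptor, had 5517 and 5658 units in FGF23 RNA, against 5185 and 5153 in unstimulated RNA, and these did not overlap. Its log2 ratio was 0.11 ± 0.032 (SD, n = 2 arrays), which did not pass (adjusted p near 1 in limma, unadjusted p = 0.22). A second Tnfrsf1a probe had -0.054 on array 1 and 0.086 on array 2. Tnfrsf1b, the receptor best known from immune cells, had a dim probe with -0.015 on array 1 and -0.15 on array 2.

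**Figure D2:**
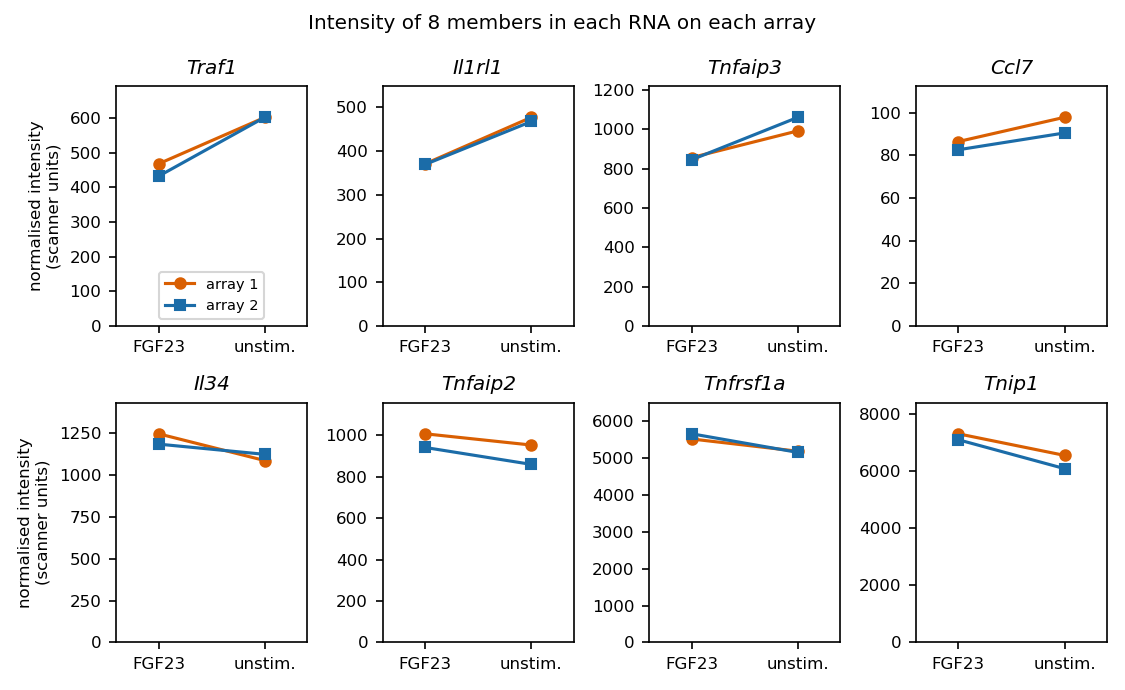
Normalised intensity in scanner units (vertical axis, from 0) in FGF23 RNA and unstimulated RNA for the 4 genes with the lowest and the 4 with the highest log2 ratio shared by both arrays, with 1 line per array. Lines for Traf1, Il1rl1, Tnfaip3 and Ccl7 are lower at FGF23 on both arrays (Ccl7 was kept only through unstimulated RNA), and those for Il34, Tnfaip2, Tnfrsf1a and Tnip1 are higher.

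Among the inhibitors, Tnfaip3 encodes A20, a ubiquitin-editing enzyme that shuts off tumour necrosis factor signalling. It had 857 and 846 units in FGF23 RNA, against 993 and 1062 in unstimulated RNA, with no overlap. Log2 ratios of -0.21 and -0.33 gave a mean of -0.27 ± 0.082 (SD, n = 2 arrays) and an adjusted p of 0.926 in limma. Tnip1 encodes ABIN-1, the ubiquitin-binding partner of A20. Its brightest probe had 7307 and 7099 units in FGF23 RNA, against 6551 and 6088 in unstimulated RNA, again without overlap. Here the log2 ratios were 0.16 and 0.22 (mean 0.19 ± 0.045, SD, n = 2 arrays), with a limma 95% interval from 0.0028 to 0.38 and an adjusted p near 1. A second Tnip1 probe, which ends where the first begins, had 0.13 and 0.17. So A20 and its partner lay on opposite sides of 0 on both arrays, and neither passed the test over all genes.

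Nfkbia encodes IkB-alpha, the classical inhibitor whose own gene NF-kB induces. Its probe had 6453 and 6247 units in FGF23 RNA, against 6811 and 7082 in unstimulated RNA. All FGF23 values were the lower, but the log2 ratios were small, at -0.078 and -0.18 (mean -0.13 ± 0.073, SD, n = 2 arrays), and limma's 95% interval ran from -0.32 to 0.059. The Nfkbia probe covers 496 bases of chromosome 12 with a sequence of 60 bases. Nfkbib, which encodes IkB-beta, had -0.30 on array 1 and 0.0089 on array 2, and its second kept probe had -0.20 and -0.00067. For both probes the lower ratio came from array 1 alone. Nfkbie, which encodes IkB-epsilon, had -0.033 and 0.11.

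Promoter sequence of several of these genes carries matches to the kB consensus, the motif that NF-kB dimers bind. Promoters were taken from RefSeq (GRCm38.p6), from 250 bases before to 50 after a start site, and searched on both strands. Entries existed for 34 of the 45 genes, and 13 of these genes (38.2%) had a match, against 9.55% of the 27025 genes with promoters. Promoters of 3 feedback genes and of a chemokine measured by 2 probes are printed with the matches in capitals, and that of Traf1 because that gene had the lowest ratio.
Tnfaip3, chr10:19015361-19015660, minus strand: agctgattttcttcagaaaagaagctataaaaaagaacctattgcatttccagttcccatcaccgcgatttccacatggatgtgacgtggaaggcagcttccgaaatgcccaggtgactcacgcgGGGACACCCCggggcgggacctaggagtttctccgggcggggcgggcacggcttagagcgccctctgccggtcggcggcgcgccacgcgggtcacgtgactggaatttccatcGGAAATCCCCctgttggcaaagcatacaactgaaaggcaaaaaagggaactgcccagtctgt
Tnip1, chr11:54962891-54963190, minus strand: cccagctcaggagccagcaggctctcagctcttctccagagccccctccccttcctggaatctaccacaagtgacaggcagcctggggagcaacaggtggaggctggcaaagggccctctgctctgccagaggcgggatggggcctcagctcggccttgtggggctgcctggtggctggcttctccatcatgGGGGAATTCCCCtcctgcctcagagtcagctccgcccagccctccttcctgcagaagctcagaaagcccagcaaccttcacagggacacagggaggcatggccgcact
Nfkbia, chr12:55492598-55492897, minus strand: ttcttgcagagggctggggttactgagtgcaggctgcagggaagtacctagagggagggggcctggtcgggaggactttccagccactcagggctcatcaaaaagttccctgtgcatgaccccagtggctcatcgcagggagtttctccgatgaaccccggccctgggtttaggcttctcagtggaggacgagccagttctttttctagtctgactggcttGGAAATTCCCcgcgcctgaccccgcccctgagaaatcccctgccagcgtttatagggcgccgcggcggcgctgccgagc
Cxcl10, chr5:92348840-92349139, minus strand: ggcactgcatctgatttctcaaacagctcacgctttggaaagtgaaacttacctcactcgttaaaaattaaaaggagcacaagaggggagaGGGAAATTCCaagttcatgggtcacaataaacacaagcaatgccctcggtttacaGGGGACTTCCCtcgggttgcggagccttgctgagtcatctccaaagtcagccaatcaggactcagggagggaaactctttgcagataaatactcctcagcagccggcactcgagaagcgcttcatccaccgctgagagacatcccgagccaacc
Traf1, chr2:34961723-34962022, minus strand: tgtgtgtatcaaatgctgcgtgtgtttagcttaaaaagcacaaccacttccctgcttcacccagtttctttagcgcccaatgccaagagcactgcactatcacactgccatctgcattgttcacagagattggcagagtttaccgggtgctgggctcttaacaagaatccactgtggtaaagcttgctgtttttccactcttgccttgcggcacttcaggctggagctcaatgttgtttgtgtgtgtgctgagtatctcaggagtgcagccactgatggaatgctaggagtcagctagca
The Nfkbia match reads GGGAATTTCC on the opposite strand at position -29 from the start site, and the Tnip1 matches overlap around position -57. In Cxcl10 the matches begin at positions -159 and -104, in 2 separate stretches, and Tnfaip3 also has 2 stretches, at -125 and -12. A second Tnfaip3 start site in the table had no match. The Traf1 window holds no match. Measured genes with a match had a median log2 ratio of -0.018 (n = 11, from -0.27 to 0.19) and those without one -0.013 (n = 14, from -0.42 to 0.11). A match is a description of these letters and not evidence of binding.

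Of the subunits, Relb, the partner of p52 in the non-canonical pathway, had 1596 and 1563 units in FGF23 RNA, against 1532 and 1521 in unstimulated RNA, with a log2 ratio of 0.049 ± 0.014 (SD, n = 2 arrays). The 3 Relb probes did not move as one, with means of 0.049, -0.034 and 0.15. The first pair share 9 bases end to end. Nfkb1, which encodes p105 and p50, had 0.17 on array 1 and 0.024 on array 2, and its second probe -0.0040 and 0.13. Nfkb2, which encodes p100 and p52, had -0.060 and 0.038. Rela, which encodes p65, had the widest disagreement between arrays, at 0.38 and -0.18, with 23085 and 19483 units in FGF23 RNA, against 17733 and 22078 in unstimulated RNA. After normalization the Cy3 channel was the brighter for this probe on both arrays. Rel, the lymphoid subunit, was not well above background in either RNA.

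Kinase complex and adaptor genes stayed within 0.1 of 0 in the mean, apart from Traf1 and the scaffold gene Ikbkg at 0.10. The catalytic subunit genes Chuk (IKK-alpha) and Ikbkb (IKK-beta) had 0.19 and -0.066, and -0.033 and -0.024, on arrays 1 and 2. Ikbkg, which encodes NEMO, had -0.089 and 0.29, and its other probe -0.30 and 0.25, so both probes changed sign between arrays. The adaptors Traf2 and Traf3 had means of 0.056 and 0.049, and the ubiquitin ligases Birc2 and Birc3 0.010 and -0.042. Second probes of Traf2 and Birc3 had 0.13 and 0.046.

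Of the 9 measured chemokines, 2 were below 0 on both arrays, against 22.3% of all genes. Above 0 on both was 1, against 23.9%, and 6 had arrays of opposite sign, as did 10345 of all 19220 genes. One of the lower pair is Ccl7, whose probe was kept only through unstimulated RNA, where it is the brighter, so its place among them is no support for a difference. Ccl2, the monocyte attractant also called MCP-1, had 22558 and 26464 units in FGF23 RNA, against 29328 and 27038 in unstimulated RNA. FGF23 values were the lower on both arrays, but the log2 ratio was -0.38 on array 1 and -0.031 on array 2 (mean -0.20 ± 0.25, SD, n = 2 arrays), which did not pass, so array 1 set most of that mean. Ccl7, its neighbour on chromosome 11 and a related monocyte attractant, had 86.5 and 82.6 units in FGF23 RNA, against 97.9 and 90.5 in unstimulated RNA. The Ccl7 log2 ratio was -0.16 ± 0.033 (SD, n = 2 arrays), from a probe well above background on 1 of 2 arrays in FGF23 RNA and on both in unstimulated RNA. With such a dim probe the offset matters: the mean was -0.38 with an offset of 0, and -0.53 from the log ratio of the scanner software.

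Cxcl1, a neutrophil attractant, had -0.29 on array 1 and 0.031 on array 2. The related Cxcl2 had 0.024 and -0.059 from a dim probe, and 0.21 and -0.25 from the log ratio of the scanner software. Cxcl5, another attractant of neutrophils, was above 0 on both arrays, at 0.037 and 0.29. Its intensities were 581 and 676 units in FGF23 RNA, against 566 and 552 in unstimulated RNA. Cxcl10, the interferon-inducible attractant of T cells, had -0.30 and 0.16 on arrays 1 and 2. Its second probe, read from a different stretch of chromosome 5, had -0.33 and 0.16, nearly the same pair of values, and on both arrays Cy5 was the brighter channel for both. Ccl5, also called RANTES, had 0.096 and -0.022, the membrane-tethered Cx3cl1 0.0022 and -0.032, and the scavenger-receptor ligand Cxcl16 -0.019 and 0.035. Ccl20, an attractant of T helper cells, was not well above background.

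**Figure D3:**
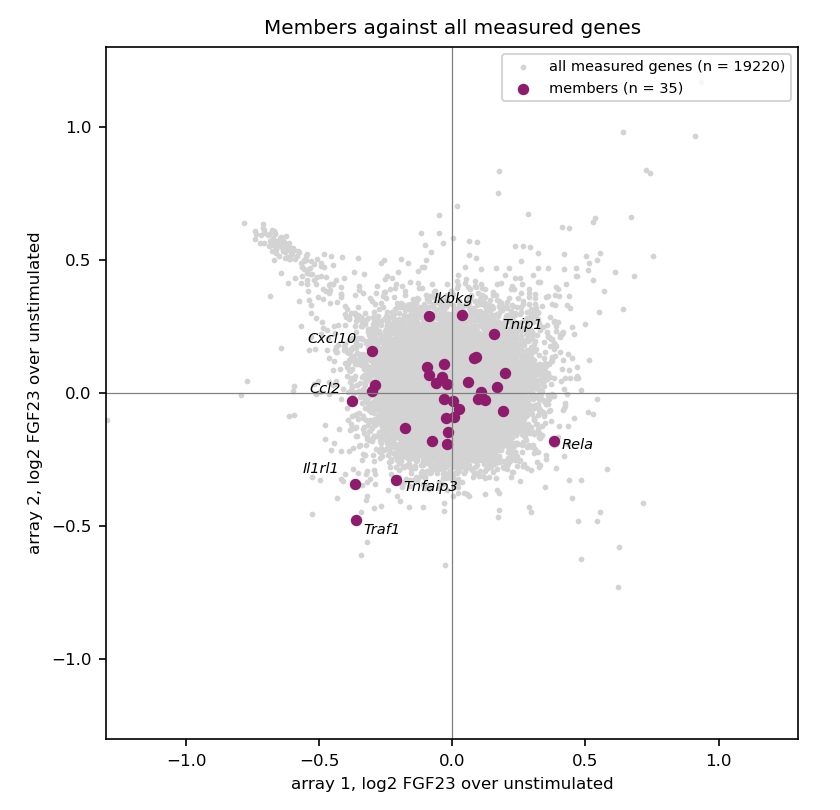
Log2 ratio of FGF23 over unstimulated on array 1 (horizontal) and array 2 (vertical) for the 19220 measured genes in grey and the 35 members in purple, with 1 gene beyond the axes at ±1.3. Traf1, Il1rl1 and Tnfaip3 sit at the lower left edge of the grey cloud, and Rela and Cxcl10 lie in the quadrants where the arrays disagree.

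Of the cytokines, 3 of 9 were measured. Csf1, the macrophage growth factor, had 8701 and 8296 units in FGF23 RNA, against 8834 and 9466 in unstimulated RNA. The FGF23 values were below the unstimulated ones on both arrays, with log2 ratios of -0.022 and -0.19. Its other probes, which read a second RefSeq transcript and share the 31 bases in capitals, had means of -0.039 and -0.058, so their values are not independent.
Csf1 A_55_P2017914, chr3:107548550-107548609, minus strand: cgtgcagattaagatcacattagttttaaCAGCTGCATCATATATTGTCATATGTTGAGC
Csf1 A_55_P2169669, chr3:107548521-107548580, minus strand: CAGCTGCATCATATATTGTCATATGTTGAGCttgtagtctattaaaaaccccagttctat
Il34, an alternative ligand of the Csf1 receptor, had 1246 and 1184 units in FGF23 RNA, against 1086 and 1123 in unstimulated RNA. All FGF23 values were higher, and the log2 ratio of 0.14 ± 0.086 (SD, n = 2 arrays) did not pass. Il33, the alarmin that binds the Il1rl1 product, had -0.088 and 0.066 from a dim probe.

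The classical inflammatory cytokines were not well above background in either RNA. Tnf was probed at 10 spots, of which 0 were well above background in FGF23 RNA or in unstimulated RNA on either array. Its mean signals before background correction were 39.9 and 42.7 in FGF23 RNA, against 43.4 and 40.1 in unstimulated RNA, beside local backgrounds of 39.0 and 36.8, and 36.8 and 40.1. Il1b had 0 and 1 of 10 spots well above background in FGF23 RNA, against 0 and 0 in unstimulated RNA. Csf2 (GM-CSF) had 0 and 2 of 10 spots in FGF23 RNA, against 4 and 1 in unstimulated RNA. Il1a, Il18, Csf3 (G-CSF), the adhesion molecule Icam1 and the acute-phase gene Saa3 were likewise not measured. Csf3 was well above background in unstimulated RNA on array 1 alone. Across the 10 genes that were not measured, mean signals were 35.1 to 57.7 in FGF23 RNA and 34.7 to 61.4 in unstimulated RNA, beside local backgrounds of 34 to 42 and 33 to 43. For these genes a difference was not detectable at this signal, and no fold is given.

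Vcam1, an adhesion molecule for leukocytes, had 847 and 940 units in FGF23 RNA, against 904 and 879 in unstimulated RNA, and these overlapped. Its mean log2 ratio was 0.00070, and a dim second probe had -0.070. The complement gene C3 had 4796 and 4693 units in FGF23 RNA, against 4876 and 5004 in unstimulated RNA. Each of its 2 probes was below 0 on both arrays, with means of -0.058 and -0.094. Tnfaip2, a gene first found as induced by tumour necrosis factor, had 1007 and 941 units in FGF23 RNA, against 952 and 859 in unstimulated RNA, which overlapped between arrays, and a log2 ratio of 0.11 ± 0.036 (SD, n = 2 arrays). Its other probe had 0.10 and 0.020. Neither C3 nor Tnfaip2 passed the test.

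**Figure D4:**
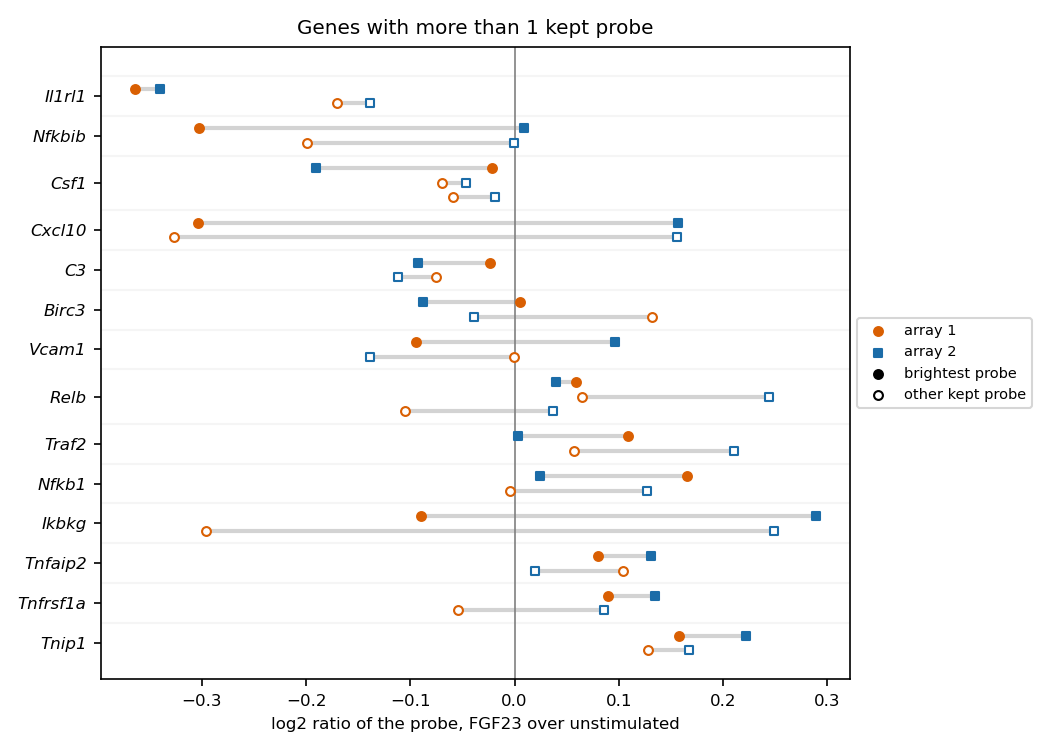
Log2 ratio of FGF23 over unstimulated for every kept probe of the 14 members with more than 1, with array 1 as circles, array 2 as squares and the brightest probe filled. Probe means had 1 sign in 10 of the 14 genes, and the paired Cxcl10 and Ikbkg probes repeat the disagreement between arrays.

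Of the 14 genes with more than 1 kept probe, 10 had probe means of 1 sign. The exceptions were Relb, Ikbkg, Birc3 and Vcam1, whose probe means lay between -0.070 and 0.15. The widest gap between probe means was that of Il1rl1, at 0.20, followed by Relb at 0.19.

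Probes printed at 10 spots show how much of the difference between arrays arises within an array. For Ccl2, the SD over 10 spots was 0.011 on each array, around means of -0.38 and -0.031. The spots of array 1 ran from -0.39 to -0.35 and those of array 2 from -0.050 to -0.011, so the arrays did not overlap. For Csf1 the spot SDs were 0.014 and 0.016, around -0.022 and -0.19. Tnfrsf1a had 0.090 and 0.13 with spot SDs of 0.016 and 0.024, and C3 had -0.024 and -0.093 with 0.027 and 0.024. Spots of 1 array share its RNA and labelling and are no replicates of the treatment.

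**Figure D5:**
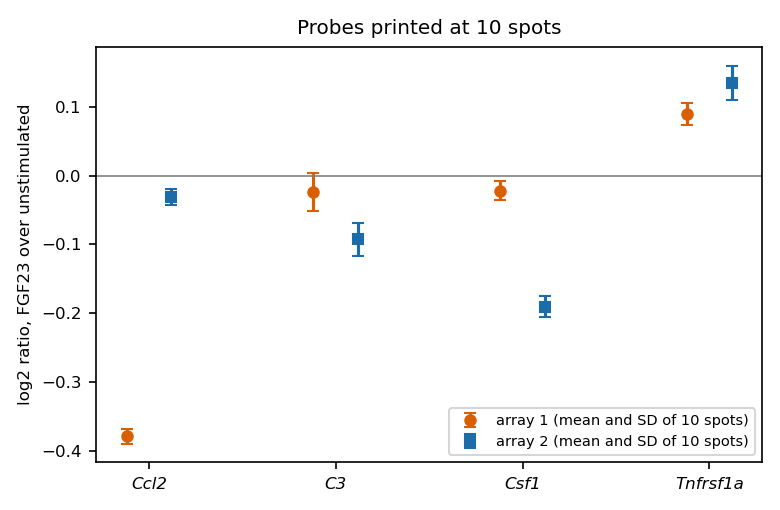
Mean log2 ratio of FGF23 over unstimulated of the 4 measured members printed at 10 spots, with error bars showing the SD over 10 spots within array 1 (circles) and array 2 (squares). For Ccl2 and Csf1 the arrays lie much further apart than the bars are long.

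The mean of Cy5 over Cy3 over both arrays, in which the treatment cancels, holds any dye effect together with other differences between the arrays. With 1 array per dye orientation these cannot be told apart. Its median size was 0.058 over the 35 genes, beside a median size of 0.081 for the log2 ratio of FGF23 over unstimulated. Over all 19220 genes these were 0.062 and 0.054. The mean of Cy5 over Cy3 was the larger in size in 17 of the 35 genes (48.6%), against 53.8% of all genes. For this mean, Rela at -0.28, Cxcl10 at 0.23 and Ikbkg at 0.19 were the furthest out. It was -0.058 for Traf1, 0.012 for Il1rl1, -0.058 for Tnfaip3 and 0.032 for Tnip1. Across all 19220 genes the log2 ratios of FGF23 over unstimulated on the 2 arrays were not positively correlated (Pearson -0.12, Spearman -0.084).

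No gene of the wider NF-kB pathway passed the test. Of 82 further adaptors, kinases, receptors and targets, 66 were measured, 0 passed in either direction in limma, and their median was 0.013. At an unadjusted limma p under 0.05, 3 of the 66 were higher and 0 lower, where the shares over all genes were 2.6% and 1.31%. By the smaller of both arrays' ratios, the highest were Lcn2, the iron-carrier-binding protein of injured tubules, at 0.27 ± 0.047, and the C/EBP factors Cebpb and Cebpd, which act with NF-kB in the acute-phase response, at 0.24 ± 0.044 and 0.22 ± 0.092. The lowest were Ptgs2, which makes prostaglandins, at -0.17 ± 0.075, the non-canonical kinase Map3k14 (NIK) at -0.077 ± 0.014, and the acute-phase gene Saa1 at -0.080 ± 0.025 (SD, n = 2 arrays for each). Saa1 has a near-identical paralogue, and whether this probe also reads it was not tested, so that last value is uncertain.

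In the authors' deposited table the p-value of the log ratio, from the error model of each array, was 0.0487 and 0.0328 for Il1rl1 and 0.0612 and 0.00508 for Traf1 on arrays 1 and 2. By the brightest kept probe, no other of the 35 genes was under 0.05 on either array in the authors' deposited table, in which 4.22% of all measured genes were on array 1 and 3.43% on array 2. The 1 and 2 genes of 35 are near those shares. Under 0.05 on both arrays with ratios of 1 sign was 1 of the 35 (Il1rl1), against 69 of all 19220 genes, and 1 gene is too few to compare. Among the other kept probes, 1 of Ikbkg had 0.0251 on array 1 in the authors' deposited table, where its log ratios had opposite signs on the arrays. With limma's intensity trend and robust prior, Traf1 and Il1rl1 passed over all genes, at adjusted p of 0.0033 and 0.047, where 59 genes passed as higher and 20 as lower. Adjusted p ranged from 0.0033 to 1 for Traf1 and from 0.047 to 1 for Il1rl1 over the processing alternatives. In simulated data of this size, limma called 62 unchanged genes among 261 calls, more than the nominal share. A pass at 0.05 may therefore be less strict than it reads. On the arrays themselves limma without the trend called 9 genes as higher and 0 as lower, so the simulated share need not hold for them. With 2 arrays, the smallest p an exact two-sided sign-flip test allows is 0.5.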

How the data were processed

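Two-colour arrays of mIMCD3 RNA were analysed from the deposited scanner files, made with Feature Extraction 11.5.1.1 on an array design annotated on mm9, per the file headers. The deposited mean and local background values are linear intensity per spot and dye. The deposited log10 ratio of Cy5 over Cy3 had been background-subtracted and dye-normalized by that software, per the file headers, and the deposited p-value came from its error model.

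In limma 3.58.1 (R 4.3.3), normexp with an offset of 50 took the local background median off the mean signals, and loess normalized each array with control spots at weight 0. Outlier spots were left out, spots of a probe averaged and ratios turned to FGF23 over unstimulated, which rests on the labels. A probe needed a share above 0.5 of its spots well above background. A gene was read by its brightest kept probe (26941 of 55681 probes kept, 19220 genes). Symbols were updated through RefSeq for 28026 probes, and 1651 were renamed. Channel intensities followed Aquantile scaling. The number of arrays limits the precision.

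limma's lmFit and eBayes, with 1 residual and 11.9 prior degrees of freedom, tested each gene against 0 with Benjamini-Hochberg adjustment over all genes. No dye term was fitted, since none would have left a residual degree of freedom. The test was run on simulated ratios of 19220 genes of this comparison and recovered 99% of 1.5-fold changes, but 62 of its 261 calls were unchanged genes, against the nominal 0.05. With 1 residual degree of freedom the spread is borrowed almost wholly from other genes. The members and lists were chosen with earlier results of these data known. Named genes were the 4 lowest and 4 highest by the smaller of both arrays' log2 ratios of 1 sign, those past the test and those with several probes. For the wider pathway, the 3 lowest and 3 highest were named. Other members are given as values. Alternatives covered the log ratio, offset, normalization, probe choice, filter, prior and symbols, and leaving out an array.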

Additional observations from a re-analysis of the deposited data

How the results depend on the processing

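Traf1 and Il1rl1 (2 genes) passed with an intensity trend and robust prior. Under the other alternatives no gene of the set passed. With median centring in place of loess, the count below 0 on both arrays was 2 and the count above was 0, beside 3.34% and 3.03% of all genes. Counting over 1 array in place of 2 gave 17 to 20 below 0 and 15 to 18 above. The share of all genes on a single array was not counted, so no lean of the set is read from these counts. Medians of all genes were themselves off 0, at -0.012 on array 1 and 0.015 on array 2. The median of the set lay between -0.023 and -0.0053 over the processing alternatives, and between -0.022 and 0.0037 on single arrays. Vcam1 turned sign with the Agilent ratio (-0.0030), without an offset (-0.0013), with centring by the median (-0.0091) and with probes averaged (-0.035). Cxcl16 turned with centring by the median (-0.0037) and Birc3 with probes averaged (0.0024). None of these 3 genes had passed, and the cause was not tested. Of 279 values of single genes under the processing alternatives, 271 kept direction and call. Dropping 1 of 2 arrays turned the sign of 17 of the 35 genes, among them Cxcl10 (0.16 on array 2), Rela (-0.18 on array 2) and Ikbkg (-0.089 on array 1). Over all genes, 10345 of 19220 had arrays of opposite sign. Ccl7 gave no value with the stricter filter. The offset compresses ratios of dim probes, and low signal left 10 genes unmeasured. The ratio within each array already pairs both RNAs, so no further replicate block was fitted.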
